A study of Mus musculus with 6 samples.

Results

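Of the 13809 autosomal H3K27me3 peaks of at least 2000 bp called in wt colonic organoids, 590 (4.27%) had 0 bp of overlap with any H3K27me3 peak called in organoids treated with TNFα, and these 590 regions are described here. They were chosen by their H3K27me3 calls, so their H3K27me3 values are given as a description, while the rule itself uses no H3K4me3, gene annotation or sequence. The rule was set with earlier results of these data known, H3K4me3 among them, so the H3K4me3 values are a description too. The series measured histone H3K27me3 and H3K4me3 by ChIP-seq in epithelial organoids grown from C57BL/6 mouse colon. The wt organoids received no TNFα, and the wt+TNFα organoids received TNFα at 40 ng/ml for 3 weeks. Both are labelled wt. Crypts were cultured in Matrigel with L-WRN conditioned medium, and organoids from several wells were pooled before the ChIP. Each condition had 1 library for each mark (H3K4me3 with Millipore #05-745R, H3K27me3 with CST #9733S) and 1 input, so nothing below could be checked across replicates and no p-values are given. In this design a difference between the conditions and a difference between the cultures or libraries cannot be told apart.

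H3K27me3 is laid down by polycomb repressive complex 2 and marks genes held silent, among them developmental regulators that an adult epithelium does not use. H3K4me3 marks the promoters of active or poised genes and is densest at CpG-rich starts. A promoter with both marks is called bivalent, and the balance between the marks is known to shift when a silent gene becomes active.

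The sequences below are from GRCm38 (plus strand), each 200 bp taken from inside one of the 590 regions. The first 3 lie under an H3K4me3 peak called in wt+TNFα alone, the next 2 at H3K4me3 called in both conditions, and the last lies at an internal start of Arhgef17 that had no H3K4me3 in either condition. They are shown because the regions that carried H3K4me3 were mostly CpG-rich promoters, and CpG dinucleotides are in capitals.
Parp8, chr13:117024715-117024914: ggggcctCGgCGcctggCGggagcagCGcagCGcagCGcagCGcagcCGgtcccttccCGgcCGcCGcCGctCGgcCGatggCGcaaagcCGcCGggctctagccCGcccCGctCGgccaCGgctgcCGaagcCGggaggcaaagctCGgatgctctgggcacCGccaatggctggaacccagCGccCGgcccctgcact
Nos2, chr11:78923802-78924001: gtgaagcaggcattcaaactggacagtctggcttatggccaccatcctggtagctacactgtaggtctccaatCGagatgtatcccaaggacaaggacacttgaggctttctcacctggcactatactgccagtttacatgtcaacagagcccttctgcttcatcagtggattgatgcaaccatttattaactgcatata
Plau, chr14:20836735-20836934: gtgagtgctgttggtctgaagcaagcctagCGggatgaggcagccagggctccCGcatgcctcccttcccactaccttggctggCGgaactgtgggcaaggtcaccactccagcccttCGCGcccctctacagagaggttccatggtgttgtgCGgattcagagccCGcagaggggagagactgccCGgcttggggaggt
Wwtr1, chr3:57575401-57575600: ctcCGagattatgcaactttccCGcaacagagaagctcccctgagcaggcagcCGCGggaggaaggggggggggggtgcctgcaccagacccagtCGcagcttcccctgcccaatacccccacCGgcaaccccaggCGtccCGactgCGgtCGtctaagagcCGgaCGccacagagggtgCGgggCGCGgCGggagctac
Mapk11, chr15:89149314-89149513: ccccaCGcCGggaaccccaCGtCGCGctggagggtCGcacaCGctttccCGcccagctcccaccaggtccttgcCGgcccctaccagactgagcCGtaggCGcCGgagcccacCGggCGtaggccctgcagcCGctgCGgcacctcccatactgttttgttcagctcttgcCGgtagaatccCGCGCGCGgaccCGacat
Arhgef17, chr7:100894691-100894890: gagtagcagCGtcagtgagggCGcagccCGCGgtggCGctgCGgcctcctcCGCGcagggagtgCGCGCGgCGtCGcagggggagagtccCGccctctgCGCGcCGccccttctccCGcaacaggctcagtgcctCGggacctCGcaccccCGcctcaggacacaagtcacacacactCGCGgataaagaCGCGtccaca
The Mapk11 window spans a start and 116 coding bases, and the others hold no annotated exon. The Parp8 window held 27 CpGs and that of Plau 8. The Nos2 window, 739 bp from the nearest annotated start, held 1. It lay at the edge of its region, 2816 bp from the summit of the H3K4me3 peak, whereas the Parp8 and Plau windows lay 0 and 63 bp from theirs, so its CpG number is that of a flank. The Arhgef17 window held 25 CpGs and had no H3K4me3 peak, so CpG density did not separate regions with the mark from those without it in every case.

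The check of the labelled cell type held: of 14 colon epithelial markers, 10 had an H3K4me3 peak at a promoter in wt and 10 in wt+TNFα, including Epcam, Cdh1, Krt8 and Cdx2. Lgr5, Muc2 and Tff3 had none in either condition, Krt20 had one in wt alone and Car1 in wt+TNFα alone. None of 7 stromal, 7 immune, 4 endothelial and 4 neural or glial markers had an H3K4me3 peak in either condition. No marker had one of the 590 regions at its promoter. The peak lists differed in breadth. H3K27me3 peaks spanned 101 Mb of the wt autosomes but 228 Mb after TNFα, at median fold enrichments of 2.10 and 1.90 over input. The lowest autosomal −log10 q was 0.302 in the wt H3K27me3 list and 0.747 in that of wt+TNFα. For the 590 regions the lower quartile of −log10 q was 0.548 and the median 0.769. A part of the regions was thus below every autosomal wt+TNFα H3K27me3 peak by this value. The H3K4me3 lists were closer, with 11233 and 11565 autosomal peaks and median widths over all chromosomes of 1404 and 1510 bp. The X chromosome, left out of the rule, had 0.597 Mb of H3K27me3 in wt but 74.7 Mb with TNFα, and the Y chromosome had 3 H3K4me3 peaks in wt and 0 with TNFα. Whether the cultures came from mice of the same sex was not tested. The lists give no read counts. The labels set a target of 40 M reads for H3K4me3 and for input and 60 M for H3K27me3. By the study's reporting summary the wt+TNFα H3K4me3 library and the wt+TNFα input were each sequenced well over the depth of their wt counterparts, while both H3K27me3 libraries had nearly equal depth. The names of the deposited lists mention a spike-in for all but the wt+TNFα H3K27me3 list, so the pair of H3K27me3 lists that define the regions may have been scaled differently. The part of these differences in the results below was not tested.

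The 590 regions were narrower and weaker than the other wt H3K27me3 peaks of at least 2000 bp, while their median fold enrichment was that of the whole autosomal wt list. Their width ranged from 2002 to 32984 bp with a median of 2824 bp, and their fold enrichment over input ranged from 1.86 to 4.01 with a median of 2.10. The 13219 wt peaks of at least 2000 bp that overlapped a wt+TNFα peak were wider, with a median of 4105 bp, and slightly stronger, at a median fold enrichment of 2.22. A −log10 q of 2 or more was reached by 53 of the 590 (8.98%) and by 26.3% of the overlapping peaks. At the width limit, the 3 regions just inside measured 2002, 2002 and 2007 bp, with fold enrichments of 2.06, 2.0 and 2.08. The 3 non-overlapping peaks just outside measured 1992, 1994 and 1996 bp, with fold enrichments of 2.0, 2.03 and 1.95, and none of these 6 had H3K4me3. Below the limit, 3922 of 16538 autosomal wt peaks (23.7%) had no wt+TNFα overlap. The nearest wt+TNFα H3K27me3 peak was 20 to 841729 bp away with a median of 7994 bp, and it lay within 1000 bp of 81 regions, so a part of the list borders H3K27me3 that was still called with TNFα.

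**Figure D1:**
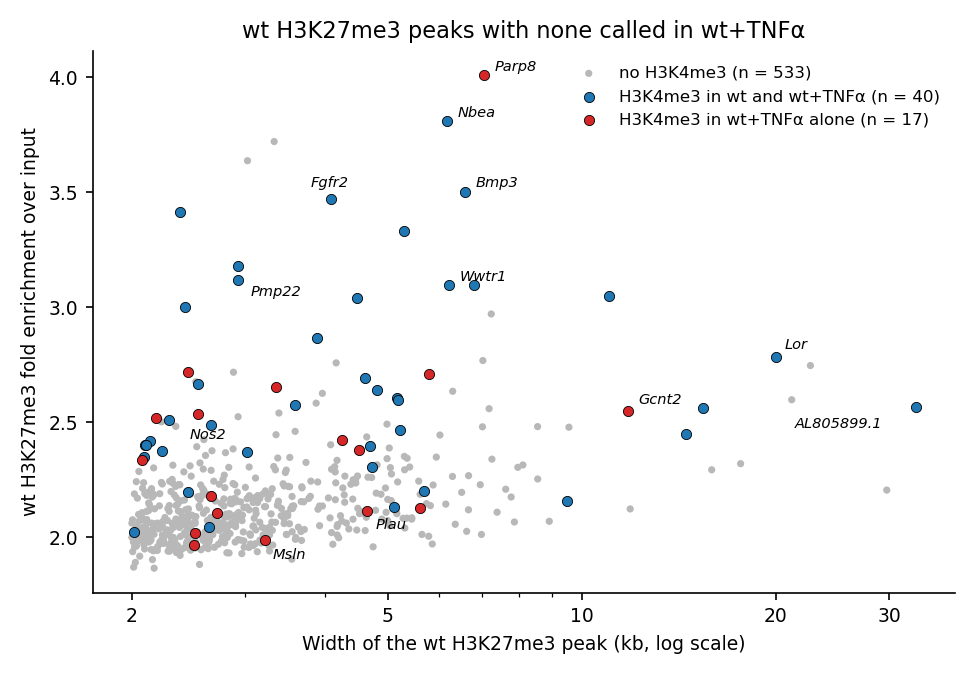
Width (kb, log scale) and wt H3K27me3 fold enrichment over input of each of the 590 regions, coloured by the H3K4me3 called at the same place. The quartiles of fold enrichment of the 533 regions without H3K4me3 were 2.01 and 2.19. Of the 15 regions with the highest fold enrichment, 13 carried H3K4me3 in wt+TNFα and 12 of these carried it in wt too.

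The regions lay on every autosome, from 17 on chromosome 17 to 52 on chromosome 3. All 4 lists as used here begin further into chromosome 1 than into any other autosome, and the stretch before that was not analysed here, so its count and the totals leave out any peaks there. As a share of the wt peaks of at least 2000 bp on the same chromosome, they ran from 2.88% on chromosome 5 to 8.83% on chromosome 3, followed by 7.42% on chromosome 16 and 7.04% on chromosome 18. A promoter, taken as 1000 bp on each side of an annotated transcript start, was met by 142 of the 590 (24.1%, exact 95% interval 20.7 to 27.7%), against 36.7% of all 13809 peaks. A further 59 regions (10%) touched an exon without a promoter, 142 (24.1%) lay in introns and 247 (41.9%) lay between genes. Of the overlapping peaks 12.8%, 16.4% and 33.6% did so. Of the bases in the regions 47.2% were intronic, 46.2% intergenic and 6.59% exonic, against 46%, 44.7% and 9.28% of the overlapping peaks. Protein-coding promoters were met by 93 regions, which named 91 protein-coding genes, and a further 49 met promoters of noncoding genes or pseudogenes alone. Sequence composition followed the location: the 142 at promoters had a median of 16.5 CpGs per kb and the 448 others a median of 9.18. The 57 with H3K4me3 in either list had a median of 30.7 and the 533 without it 9.47.

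H3K4me3 was then read at the same places in both conditions. In wt, 40 of the 590 regions (6.78%) overlapped an H3K4me3 peak, against 4.89% of all 13809 peaks. In wt+TNFα the number was 57 (9.66%), against 5.47%. With the wt+TNFα H3K27me3 list shortened to the covered length of the wt list, the rule took 5682 regions and the direction turned: 1.94% had H3K4me3 in wt, 2.59% in wt+TNFα and 0.704% in wt+TNFα alone, all below the shares of the 13809 peaks. Among the 590, the 40 were all among the 57, so 17 regions (2.88%, against 1.25% of all peaks) had H3K4me3 in wt+TNFα alone and 0 had it in wt alone, against 0.666%. The exact 95% interval for 0 of 590 reaches up to 0.623% and covers counting error only. The remaining 533 regions had no H3K4me3 peak in either condition, so for most of them the other mark was called in neither list. The organoids were measured in bulk, so a mark on more cells and more of the mark per cell cannot be told apart. Of the 57, 54 lay at a promoter.

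Because wider and stronger H3K27me3 peaks held H3K4me3 more often, the comparison with overlapping peaks was read within classes of each. By width, H3K4me3 in wt+TNFα was found in 6.82% of the 337 regions of 2 to 3 kb, against 2.25% of the 3820 overlapping peaks of that width. The shares were 8.0% against 3.86% from 3 to 5 kb, 21.2% against 7.06% from 5 to 10 kb, and 6 of 12 against 11.9% from 10 kb upward. Among peaks with a −log10 q of 2 or more, 34 of 53 regions (64.2%, interval 49.8 to 76.9%) had it, against 16.4% of 3480 overlapping peaks (interval 15.2 to 17.7%). The wt H3K4me3 list alone gave 49.1% and 14.7% in this class, so H3K4me3 was already called more often at these regions in wt. With a −log10 q between 1 and 2 the wt+TNFα shares were 9.86% and 2.46%. At promoters, 54 of 142 regions (38%) had H3K4me3 in wt+TNFα against 13.7% of 4931 overlapping peaks, and away from promoters 0.670% against 0.265%. In each of these classes the region share was the higher one. The intervals cover counting error only, and the shares come from 1 library per condition and mark.

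**Figure D2:**
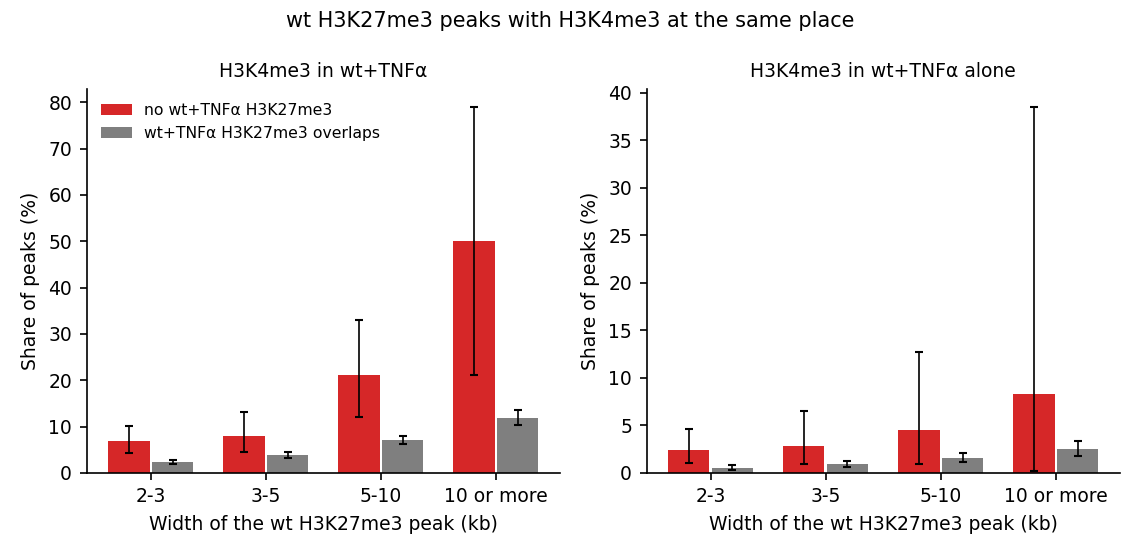
Share (%) of wt H3K27me3 peaks with H3K4me3 called in wt+TNFα (left) and in wt+TNFα alone (right), by peak width in kb. Red bars stand for the 590 regions and grey bars for the 13219 peaks that a wt+TNFα H3K27me3 peak overlapped, with exact 95% binomial intervals. The red bar is the taller in every width class, and the interval is wide for the 12 regions of at least 10 kb.

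Of the 17 regions with H3K4me3 in wt+TNFα alone, 16 lay at a promoter and 13 held the whole H3K4me3 peak. Parp8, a member of the ADP-ribosyltransferase family, had the highest H3K27me3 fold enrichment of all 590 regions. Its region, chr13:117022300-117029356, covered 6 of the 7 annotated starts of the gene. The H3K27me3 fold enrichment there was 4.01 in wt with no peak in wt+TNFα, and H3K4me3 had no peak in wt and one of 1980 bp in wt+TNFα, enriched 27.8-fold. That value is at percentile 52.1 of the wt+TNFα H3K4me3 list, near the middle of that list, at a place where none was called in wt. The nearest wt+TNFα H3K27me3 peak was 62295 bp away.

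Nos2, the inducible nitric oxide synthase and a known target of inflammatory signalling, had a region of 2538 bp with an H3K27me3 fold enrichment of 2.54 in wt, which lay inside the gene and held 2 of its 3 annotated starts, not the first. The wt+TNFα H3K4me3 peak there was 5352 bp wide, of which 1696 bp lay in the region, with a fold enrichment of 21.4. Plau encodes the secreted protease urokinase. Its region had a wt H3K27me3 fold enrichment of 2.12, close to the median of the 590, and its H3K4me3 peak, in wt+TNFα alone, was 854 bp wide with a fold enrichment of 6.88, at percentile 6.47 of its list.

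Gcnt2 and Gcnt1 encode N-acetylglucosaminyltransferases that branch glycan chains, and both were in this set. The Gcnt2 region was 11783 bp wide and held 2413 bp of H3K4me3 in wt+TNFα, enriched 18.8-fold. The Gcnt1 region was 2077 bp wide, close to the width limit, with an H3K4me3 peak of 1032 bp and a fold enrichment of 15.9. Msln, which encodes the surface protein mesothelin, was at the weak end, with an H3K27me3 fold enrichment of 1.99 and an H3K4me3 fold enrichment of 8.80. The highest H3K4me3 fold enrichment of the 17 was at Afap1, an actin-binding protein gene, at 34.5. There the peak was 1329 bp wide and only 363 bp of it lay in the region. Akap2, an anchoring protein for protein kinase A, reached 14.3, and L3mbtl4, a gene of the malignant brain tumour domain family, 17.4. Fam124a reached 23.3, with 286 bp of a 1379 bp peak inside the region, and Syde1, a GTPase-activating protein gene, 15.2. Zfp57, a zinc finger gene that maintains imprinting, had an H3K27me3 fold enrichment of 2.38 and an H3K4me3 fold enrichment of 13.1. The lowest was Eci3, an enoyl-CoA isomerase gene, at 4.13, at percentile 0.219 of the list. Of the 17, 2 were above the median fold enrichment of the wt+TNFα H3K4me3 list. The 1 region of the 17 away from promoters, chr9:102688105-102690617, had an H3K4me3 peak of 683 bp.

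**Figure D3:**
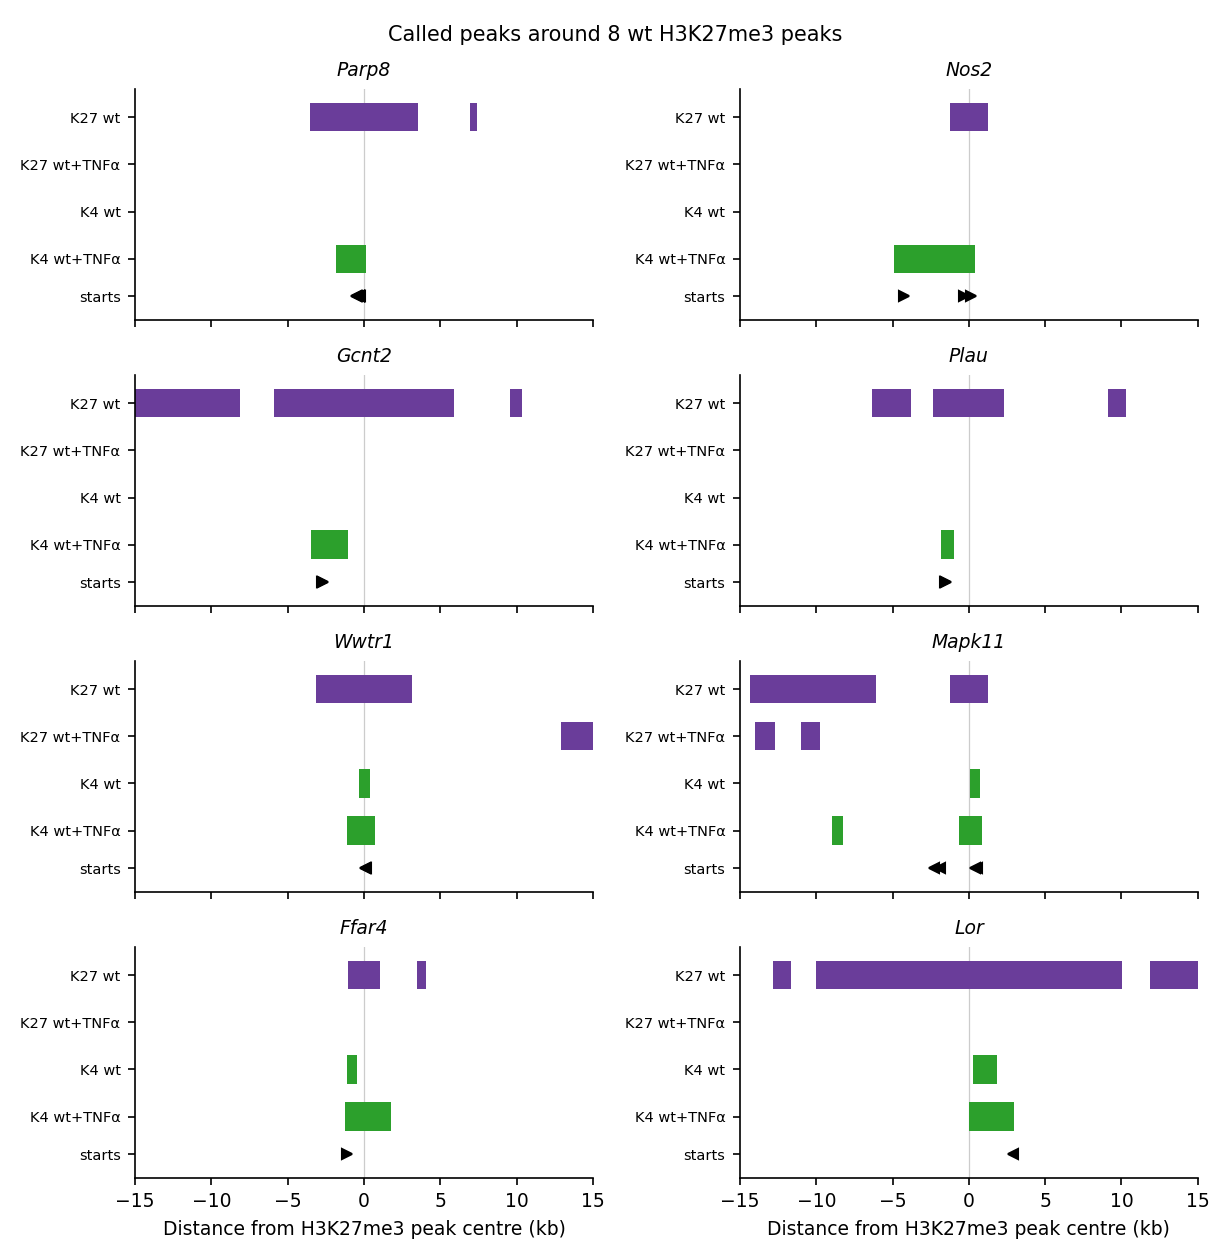
Peaks called within 15 kb of the centre of 8 of the regions, with distance in kb on the x axis. Rows show H3K27me3 (K27, purple) and H3K4me3 (K4, green) in wt and wt+TNFα, and triangles mark annotated starts, pointing the way the gene is read. Parp8, Nos2, Gcnt2 and Plau have no wt H3K4me3 bar, and at Wwtr1, Mapk11, Ffar4 and Lor the wt+TNFα H3K4me3 bar is longer than the wt bar.

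At the 40 regions with H3K4me3 in both conditions, the wt+TNFα list, from the more deeply sequenced library, gave wider and stronger peaks, and the part of depth in this was not tested. The total width of the H3K4me3 peaks touching a region was larger in wt+TNFα at 40 of 40, with a median of 1120 bp in wt and 1828 bp in wt+TNFα. The bases of H3K4me3 inside the region were more in wt+TNFα at 38 of 40. The exceptions were Elp2 with Slc39a6, with 376 bp in wt and 348 bp in wt+TNFα, and March3, with 1460 and 1386 bp. Their highest fold enrichment was larger at 39 of 40, with medians of 12.3 and 27.9, and at 21 of 40 it was at least 2 times that of wt. The exception in fold enrichment was March3, where it was 30.2 in wt and 25 in wt+TNFα. Ranked by fold enrichment within their own lists, these peaks stood at a median percentile of 20.0 in wt and 52.5 in wt+TNFα. Such ranks depend on which peaks each list holds, 11552 in wt and 11894 in wt+TNFα. No change in rank was computed for other peaks.

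H3K4me3 peaks of the 2 conditions that overlap were joined into stretches to set this beside the whole genome. The regions held 42 stretches called in both conditions, and all 42 were wider in wt+TNFα, against 74.4% of all 10772 autosomal stretches. A stretch at least 1.5 times wider was found at 23 of 42 (54.8%), against 4.79% of all and 14.3% of the 560 at overlapping H3K27me3 peaks. The median width ratio was 1.60 at the regions, 1.07 over all stretches and 1.05 at overlapping peaks. Narrow stretches were more often wider in wt+TNFα, and among those under 1000 bp in wt the share at least 1.5 times wider was 15 of 18 (83.3%) at the regions and 14.7% overall. From 1000 bp upward it was 8 of 24 (33.3%) and 2.02%. Fold enrichment was higher in wt+TNFα at 41 of the 42 stretches, against 60.4% of all. The set of stretches with H3K4me3 in wt+TNFα alone was also larger, with 18 of 60 at the regions against 6.40% of all 11899 and 20.4% at overlapping peaks, and 0 of 60 were called in wt alone, against 3.08% and 11.2%.

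**Figure D4:**
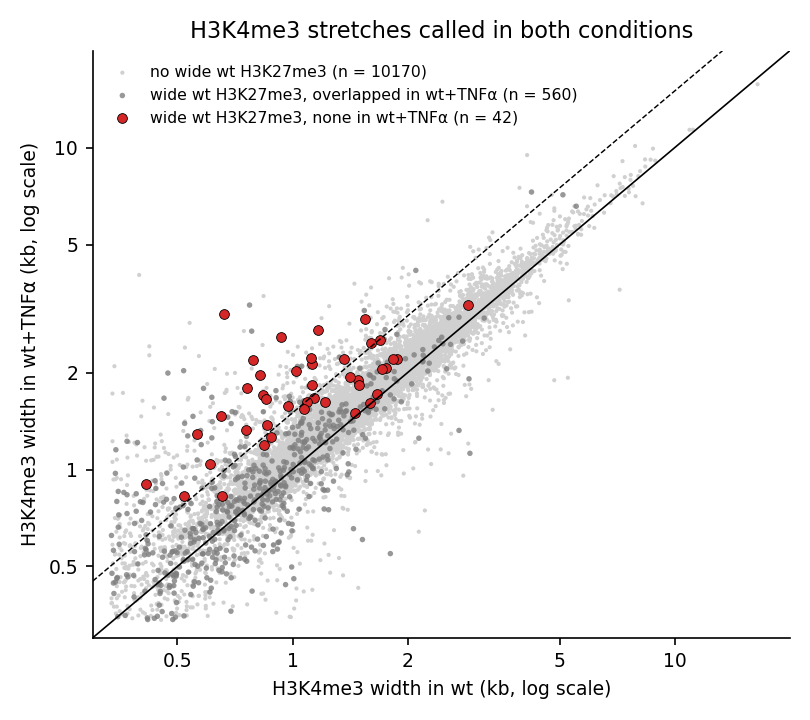
Width in kb (log scales) of each autosomal H3K4me3 stretch in wt and in wt+TNFα. Red points are the 42 stretches at the 590 regions, dark grey those at wt H3K27me3 peaks of at least 2000 bp that wt+TNFα H3K27me3 overlapped, and light grey all others. The solid line is equal width and the dashed line 1.5 times; all red points lie above the solid line and 23 on or above the dashed one.

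Wwtr1 encodes TAZ, a transcriptional co-activator of the Hippo pathway. Its region, chr3:57572661-57578891, had an H3K27me3 fold enrichment of 3.10 in wt. H3K4me3 was 762 bp wide with a fold enrichment of 8.0 in wt and 1789 bp with 30.0 in wt+TNFα. Mapk11, the p38β kinase gene, had an H3K27me3 fold enrichment of 2.66 in wt. Its H3K4me3 was 650 bp wide at 12.2 in wt and 1469 bp at 28.5 in wt+TNFα. Bmp3, a ligand of the BMP family, had an H3K27me3 fold enrichment of 3.50 and H3K4me3 of 851 bp in wt and 1660 bp in wt+TNFα. Fgfr2, a receptor for fibroblast growth factors, had 3.47, with H3K4me3 of 1694 and 2528 bp. At each of these 4 genes H3K4me3 covered more of the region in wt+TNFα than in wt, and no H3K27me3 peak was called there with TNFα.

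Nbea, a scaffold protein gene of vesicle traffic, had the second highest H3K27me3 fold enrichment at 3.81, with H3K4me3 fold enrichments of 20.6 and 37.0. Pmp22, a gene of the claudin-like membrane proteins, had 3.12. Its H3K4me3 fold enrichment in wt, 4.28, was the lowest of the 40, and in wt+TNFα it was 15.1. Zbtb7c, a zinc finger gene, had 3.18, with H3K4me3 of 839 and 1702 bp, and Eva1c, a membrane protein gene, had 3.41 with 1415 and 1944 bp. Arhgef17, a guanine nucleotide exchange factor gene, had 2 regions. The one at its first start had an H3K27me3 fold enrichment of 3.33 and H3K4me3 of 1116 and 2228 bp. The one at an internal start had 3.72, the third highest of the 590, and no H3K4me3. The fourth highest, chr4:117925112-117928138 with 3.64, was an exonic region near Artn, also without H3K4me3. Of the 15 regions with the highest H3K27me3 fold enrichment 13 had H3K4me3 in wt+TNFα, and of those ranked 16 to 50 it was 18 of 35. Among overlapping peaks with a −log10 q of 2 or more the share was 16.4%.

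The strongest relative widening was at Ffar4, a receptor for long-chain fatty acids, where H3K4me3 was 662 bp in wt and 3038 bp in wt+TNFα and covered 100% of the 2096 bp region. The region at the noncoding gene AL805899.1, at 32984 bp the widest of all, held 1 H3K4me3 peak of 1024 bp in wt and 3 separate peaks in wt+TNFα that summed to 4400 bp. Nectin1, an adhesion receptor gene, had H3K4me3 fold enrichments of 22.4 and 30.4. Gabbr1, a subunit of the GABA-B receptor, had 13.0 and 21.3, Nfatc2, a calcium-regulated transcription factor gene, 7.61 and 15.7, and Slc25a4, the mitochondrial ADP/ATP carrier gene, 9.80 and 22.2. Evx1, a homeobox gene at the end of the Hoxa cluster, was the 1 gene of the developmental transcription factor list in the set. Its H3K27me3 fold enrichment was 2.2 in wt, the nearest wt+TNFα H3K27me3 peak was 2995 bp away, and H3K4me3 was 7.52 in wt and 22.1 in wt+TNFα. At Elp2 with Slc39a6 the widths were 1598 and 1604 bp, the smallest difference of the 40.

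**Figure D5:**
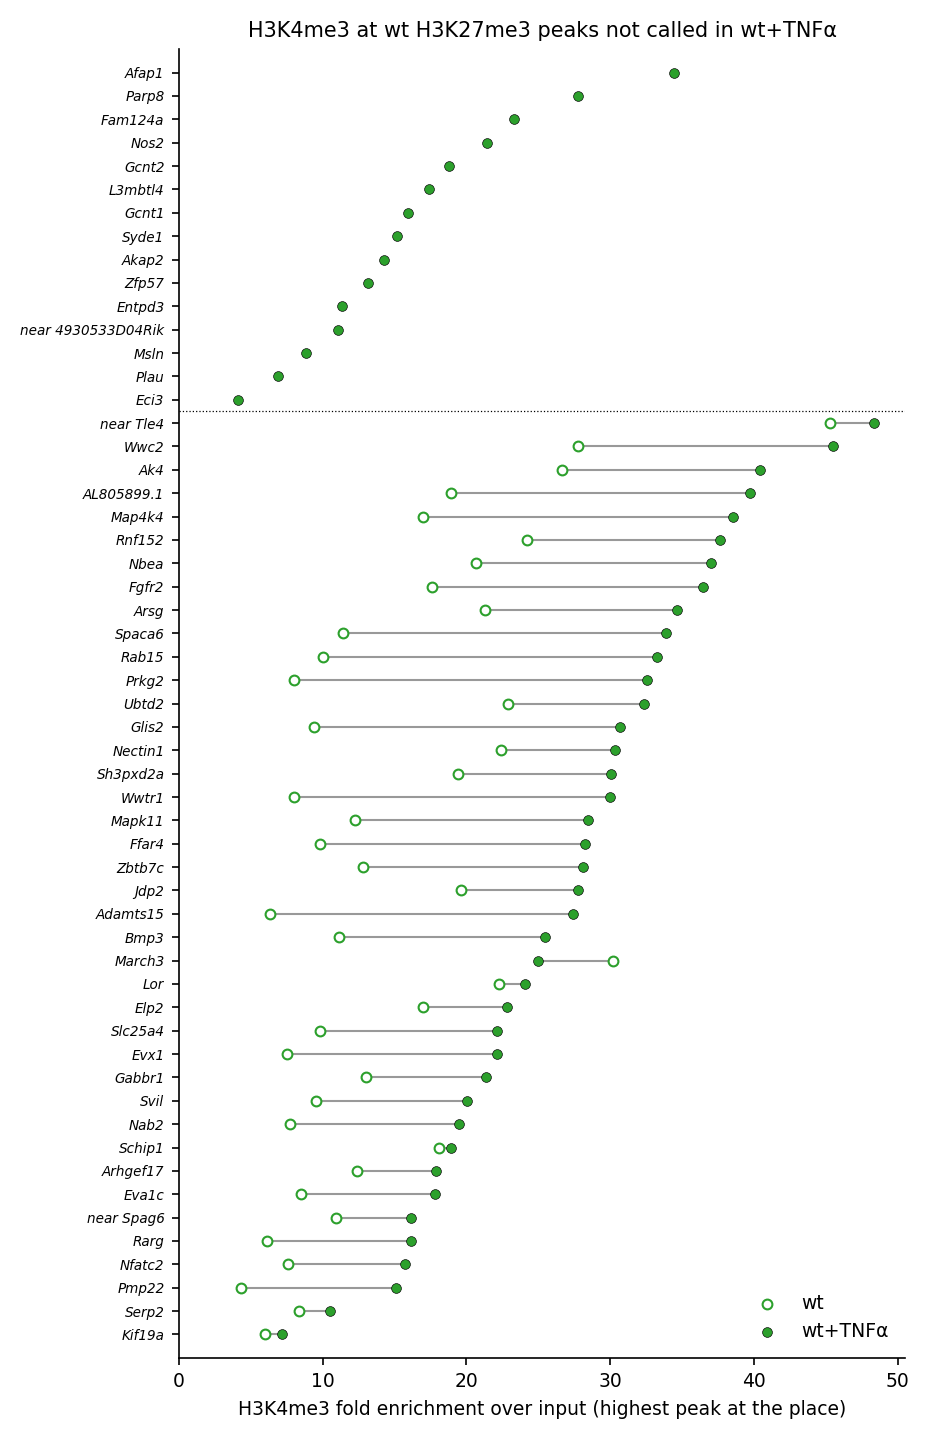
H3K4me3 fold enrichment over input at 55 of the 57 regions with H3K4me3, in wt (open) and wt+TNFα (filled), each the highest peak touching the region. Above the dotted line are 15 of the 17 regions with a wt+TNFα peak alone and below it the 40 with both, where the filled point is to the right in 39; the exception is March3.

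The region at Spaca6, chr17:17825893-17830582, also met the promoters of 3 microRNA genes read in the same direction. H3K27me3 had a fold enrichment of 2.40 in wt, and H3K4me3 was 1125 bp with a fold enrichment of 11.4 in wt and 2122 bp with 33.9 in wt+TNFα. The mature 5p sequences (RefSeq, GRCm38.p6) are given with the seed, bases 2 to 8, in capitals. They are shown for the chromatin values at this region, and no microRNA was measured.
mmu-miR-99b-5p: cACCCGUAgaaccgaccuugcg
mmu-let-7e-5p: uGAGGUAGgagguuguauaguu
mmu-miR-125a-5p: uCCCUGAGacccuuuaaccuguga
No seed was shared between them. The first pair lay inside the region, and miR-125a-5p began 234 bp past its end.

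Most regions without H3K4me3 were away from promoters, but 88 of the 533 met one, including 39 protein-coding genes. Ptgs1, the constitutive cyclooxygenase gene, had the highest H3K27me3 fold enrichment of these after Arhgef17, at 2.77 over 7022 bp, and was named after its value was seen. Sema6d, an axon guidance ligand gene, had 2.24, Arhgap22, a Rac GTPase-activating protein gene, 2.13, Syt7, a vesicle fusion gene, 2.08, and Col4a1, a basement membrane collagen gene, 1.99. Of the 10 widest regions, 6 had no H3K4me3. They were those at AA645442 (29758 bp) and Gm45591 (22649 bp), both noncoding genes, an intragenic Map4k4 region of 21183 bp, a region of 15913 bp near Vav2, and 2 near Adamts15 and Gm31013 of 17645 and 11891 bp.

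In the gene lists, the 590 regions met the promoters of 158 of 6045 genes (2.61%) that had a wt H3K27me3 peak of at least 2000 bp at a promoter. Of developmental transcription factors 1 of 179 was met, and of the Wnt pathway 0 of 40. In the TGFβ, BMP and activin pathway it was 1 of 32 and among receptor tyrosine kinases and their ligands 1 of 33. Ion channels and synapse genes had 2 of 167, and axon guidance and adhesion genes 3 of 89. Senescence and p38 genes had 3 of 24 (Mapk11, Nfatc2, Slc25a4) and NF-κB and TNF response genes 1 of 14 (Nos2). Differentiated colon epithelium had 0 of 15 and genes of other cell types 0 of 19. These lists are small beside the whole and were drawn up with earlier results of these data known, so their shares are no independent evidence.

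Within 100 kb of each other, 261 of the 590 fell into 96 stretches and 329 stood alone. No such share was computed for other H3K27me3 peaks. By the rule the regions hold no wt+TNFα H3K27me3, so the coverages of the stretches given below follow in part from it. The largest held 10 regions over 270035 bp at Adamts15 and Adamts8, protease genes of the extracellular matrix, chr9:30724390-30994424. There H3K27me3 covered 40.4% of the span in wt and 13.3% in wt+TNFα. The region at the Adamts15 start held 1 wt H3K4me3 peak of 1164 bp, enriched 6.32-fold. In wt+TNFα it held 2 separate peaks that summed to 3108 bp, the higher enriched 27.4-fold. The next held 7 regions over 81995 bp of chromosome 1, chr1:105094198-105176192, with no protein-coding gene, 31.5% covered in wt and 0% in wt+TNFα. The third held 6 over 184754 bp with Entpd3 and Rpl14, covered to 17.5% and 11.6%. Entpd3, an ectonucleotidase gene, had H3K4me3 of 700 bp in wt+TNFα alone, 373 bp from H3K27me3 still called there.

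At Map4k4 and Lor, no H3K27me3 was called in wt+TNFα anywhere in the stretch. The same held for other stretches of 4 regions, chr10:98403654-98512607 and chr19:14599282-14691633. At Map4k4, a kinase gene upstream of stress signalling, 4 regions over 84812 bp had 56.8% H3K27me3 coverage in wt and 0% after TNFα. H3K4me3 at the start was 1126 bp wide in wt and 1825 bp with TNFα. At Lor, which encodes loricrin of the cornified envelope of skin, 4 regions over 57344 bp had 62.5% and 0%. The nearest wt+TNFα H3K27me3 peak to the main Lor region was 578382 bp away. H3K4me3 at Lor was 1546 bp in wt and 2944 bp in wt+TNFα, at fold enrichments of 22.2 and 24.1. At Gcnt2, 4 regions over 80196 bp had 42.8% and 1.37%.

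In the opposite direction, 10435 of 26070 autosomal wt+TNFα H3K27me3 peaks of at least 2000 bp (40.0%) had no wt overlap. Of these 13 (0.125%) had H3K4me3 in wt alone, 5 (0.0479%) in wt+TNFα alone and 51 (0.489%) in both, against 0.464%, 0.610% and 2.41% of all 26070. H3K4me3 was thus rare at these peaks, and their shares are not on a par with those of the 590 regions, of which 0 had it in wt alone, 17 in wt+TNFα alone and 40 in both. The 53 H3K4me3 stretches called in both conditions at those peaks had a median width ratio of 0.867, against 1.60 at the 590 regions, and 1 of 53 was at least 1.5 times wider in wt+TNFα.

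Sequence at the H3K4me3 summits was read in 300 bp windows for 60 wt+TNFα H3K4me3 peaks at the regions. Their median GC content was 67.7%, against 66.7% for all 11565 autosomal wt+TNFα peaks, and the median CpG number 26 against 25. On either strand, 4 windows (6.67%) held the NF-κB consensus, against 10.2% of all. The motif TGANTCA, bound by AP-1, was in 0 against 2.98%, and GGAATG, bound by TEAD factors, in 3 (5.00%) against 10.0%. The 18 windows with no wt H3K4me3 under the peak had a median of 15 CpGs, and the 761 such windows of the whole list a median of 10. Of the 18, 0 held the NF-κB consensus, 0 TGANTCA and 2 (11.1%) GGAATG. Of the 761 it was 7.36%, 5.65% and 12.9%. A window without a motif says only that these letters are not in it.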

How the data were processed

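H3K27me3 and H3K4me3 ChIP-seq and input were measured in wt and wt+TNFα organoids, 1 library each. According to the methods and labels, the authors trimmed reads, aligned them to GRCm38 with bwa-mem (BWA 2.2), removed duplicates with SAMtools 1.11, filtered a blacklist and called peaks against input with MACS2 (2.1.0 per the labels), in broad mode for H3K27me3. The deposited peak lists hold, per peak, the fold enrichment over input, which is a ratio, and −log10 p and −log10 q values. They hold no counts. The methods name no spike-in, but the names of all lists except the wt+TNFα H3K27me3 list mention one, so the lists may have been scaled differently.

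Groups came from the labels. Members were autosomal wt H3K27me3 peaks of at least 2000 bp with 0 bp overlap with any wt+TNFα H3K27me3 peak. Overlaps, GENCODE vM21 promoters (1000 bp on each side of each transcript start) and H3K4me3 (1 bp of overlap or more) were computed in Python 3.11.15 with pandas 2.3.3, and intervals are exact binomial (scipy 1.17.1). Windows shown were the 200 bp inside region and H3K4me3 peak nearest the summit with no annotated UTR, or, for Arhgef17, which had no H3K4me3 there, nearest the region's centre. The code was tested on simulated peak lists. With 1 library per group no test was run and no pairing exists. Members and gene lists were chosen with earlier results of these data known. Named were genes of the 10 strongest and 10 widest members, of members with H3K4me3 in 1 condition alone, of the stretches with the most members and of the gene lists. Others were added after their values were seen. Some genes and lists are not reported here. Alternatives changed the width, overlap, promoter and H3K4me3 rules.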

Additional observations from a re-analysis of the deposited data

How the results depend on the processing

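The number of regions followed the H3K27me3 rules. It was 590 as reported, 2093 with a minimum width of 1000 bp, 78 with 5000 bp, 53 with a −log10 q of at least 2, and 5682 when the wt+TNFα H3K27me3 list was shortened, strongest −log10 q first, to the covered length of the wt list. In this order of 4 settings, the share at a promoter was 14.8%, 56.4%, 77.4% and 19.6%, the share with H3K4me3 in wt 3.15%, 20.5%, 49.1% and 1.94%, the share with H3K4me3 in wt+TNFα 4.30%, 25.6%, 64.2% and 2.59%, and the share with it in wt+TNFα alone 1.15%, 5.13%, 15.1% and 0.704%. In the shortened-list setting these H3K4me3 shares lay below those of all 13809 peaks (4.89%, 5.47% and 1.25%), so that comparison reversed; the cause was not tested. The promoter share was 28.1% with 2000 bp on each side, 15.8% for protein-coding genes alone and 18.1% with 1 start per gene. With only the peaks past the middle rank by −log10 q of each H3K4me3 list kept, the share was 0.678% in wt and 3.90% in wt+TNFα, and 19 regions had H3K4me3 in wt+TNFα alone. The other 31 of 56 values stayed within 1.5 times the count or within the 95% interval of the share. More regions had H3K4me3 in wt+TNFα alone than in wt alone under all 10 alternatives that bear on it, and wt alone was 0 in 9 of them and 3 of 5682 in the shortened-list setting. No paired analysis was possible because each condition had 1 library per mark and no test was run. The wt+TNFα H3K4me3 library was sequenced more deeply than that of wt, and read counts per peak could not be had from the lists, so a peak not called is not shown to be absent.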
